A study of Mus musculus with 67 samples.

Results

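Collagens were taken as every row of the RNA-seq gene tables whose gene symbol is Col, a type number, the letter a and a chain number, which gave 44 genes of 46983 gene IDs. Each was listed once in all 14 tables. RNA was measured by RNA-seq in mouse forelimb buds of the Swiss Webster background from 4 groups: E9.25 WT (21 to 23 somites, 3 libraries), E9.25 Gli3-/- (4 libraries), the anterior portion of E10.5 WT buds (32 to 35 somites, 4 libraries) and the anterior portion of E10.5 Gli3-/- buds (3 libraries). Gli3-/- embryos carry the Xt-J allele, a deletion in Gli3, the transcription factor that represses Hedgehog target genes in the limb. E9.25 precedes Hedgehog signalling in the bud and E10.5 follows it. By the labels each E9.25 library pooled about 4 pairs of buds, and each E10.5 library 2 pairs. The authors' methods differ for E10.5, giving about 4 pairs per replicate at both stages and, elsewhere, pools of 3 to 4 embryos. Whole buds were taken at the earlier stage and anterior portions at the later one, so stage and tissue part cannot be told apart.

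Collagens are secreted or membrane proteins built from 3 chains wound into a triple helix. Fibril-forming types I, II, III, V, XI, XXIV and XXVII assemble into fibers, fibril-associated types decorate them, type IV builds the sheet of basement membranes, and smaller families form beaded filaments, anchoring fibrils or membrane-spanning proteins. In the early limb, types I, III and V belong to loose mesenchyme, types II, IX and XI mark cells entering the cartilage program, and types IV and XVIII line the ectoderm and vessels.

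Expression was given as TPM, a level of transcripts scaled for gene length and brought to the same total in every library. Depth estimated from the tables was 38.07 to 56.82 M reads per library, so that 1 TPM stood for 20.72 to 29.3 reads per kb of transcript. Differences were tested with limma on log2(TPM + 1) among genes reaching 1 TPM in at least 3 of the compared libraries, two-sided, with Benjamini-Hochberg adjustment over all genes tested and a threshold of 0.05. Fold changes on this scale understate those of low genes. Values of libraries are given in the order of replicate number. The authors state that buds were pooled from several litters. Whether the libraries of a group drew on separate litters is not given, so p-values measure the spread between these libraries. In buds a smaller share of collagen-producing cells and less collagen RNA per cell cannot be told apart.

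The library labelled E9.25 WT replicate 2 stood apart. The 25 collagens tested at E9.25 were all lower in it than in the mean of the other WT libraries, by a median of -1.29 on the log2 scale, against -0.19 for all 14760 genes tested and -0.55 for the 1555 genes spanning at least 100 kb. Its Gli3 level was 15.8 TPM, against 44.2 and 44.6 TPM in the other E9.25 WT libraries and 14.3 to 20.8 TPM in the E9.25 Gli3-/- libraries. Other genes in it were nearer WT: the limb regulator Lhx2 was 50.2 TPM, against 41.1 and 44.6 TPM in WT and 7.24 to 15 TPM in Gli3-/-, and Foxf1, a lateral plate factor, 0.221 TPM, against 2.8 and 0.495 TPM in WT and 12.1 to 35.5 TPM in Gli3-/-. At E10.5, Gli3 was 73.4 to 89.7 TPM in WT and 38.7 to 40.9 TPM in Gli3-/-. All 10 limb mesenchyme markers reached a mean of 1 TPM in every group, and neural tube markers summed to at most 0.542 TPM. Counts of collagens and gene lists that rest on E9.25 WT are given with and without the library that stood apart, as are the single collagens described.

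Of the 44 collagens, 32 reached 1 TPM in some library and 19 did so in all 14. The other 12 (Col4a3, Col4a4, Col5a3, Col6a4, Col6a5, Col6a6, Col8a1, Col8a2, Col10a1, Col19a1, Col20a1 and Col28a1) stayed at or below 0.991 TPM, and 1 of them, Col6a4, was listed at 0 throughout. This low set holds Col10a1, the collagen of hypertrophic cartilage, and Col4a3 and Col4a4, chains of the kidney filter. Col3a1 had the highest mean log2(TPM + 1) of any collagen in each group, at 6.08 ± 0.85 (SD, n = 3) in E9.25 WT, 7.49 ± 0.42 (n = 4) in E9.25 Gli3-/-, 7.75 ± 0.17 (n = 4) in E10.5 WT and 7.23 ± 0.21 (n = 3) in E10.5 Gli3-/-. In E9.25 WT, Col18a1 followed at 6.02 ± 0.75, a gap to Col3a1 within the spread. In E10.5 WT, Col1a2 came next at 7.59 ± 0.33, again within the spread. In E10.5 Gli3-/-, Col4a1 came next at 7.14 ± 0.215, also within the spread, and it exceeded Col3a1 in 2 of 3 libraries. In E9.25 Gli3-/-, Col18a1 came next at 6.94 ± 0.33. Col4a1, Col18a1 and Col26a1 were among the 5 highest means in every group, joined by Col4a2 at E9.25 and by Col1a2 at E10.5. The 5 highest collagens made up 60.9 to 70.8% of all collagen TPM in a library.

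**Figure D1:**
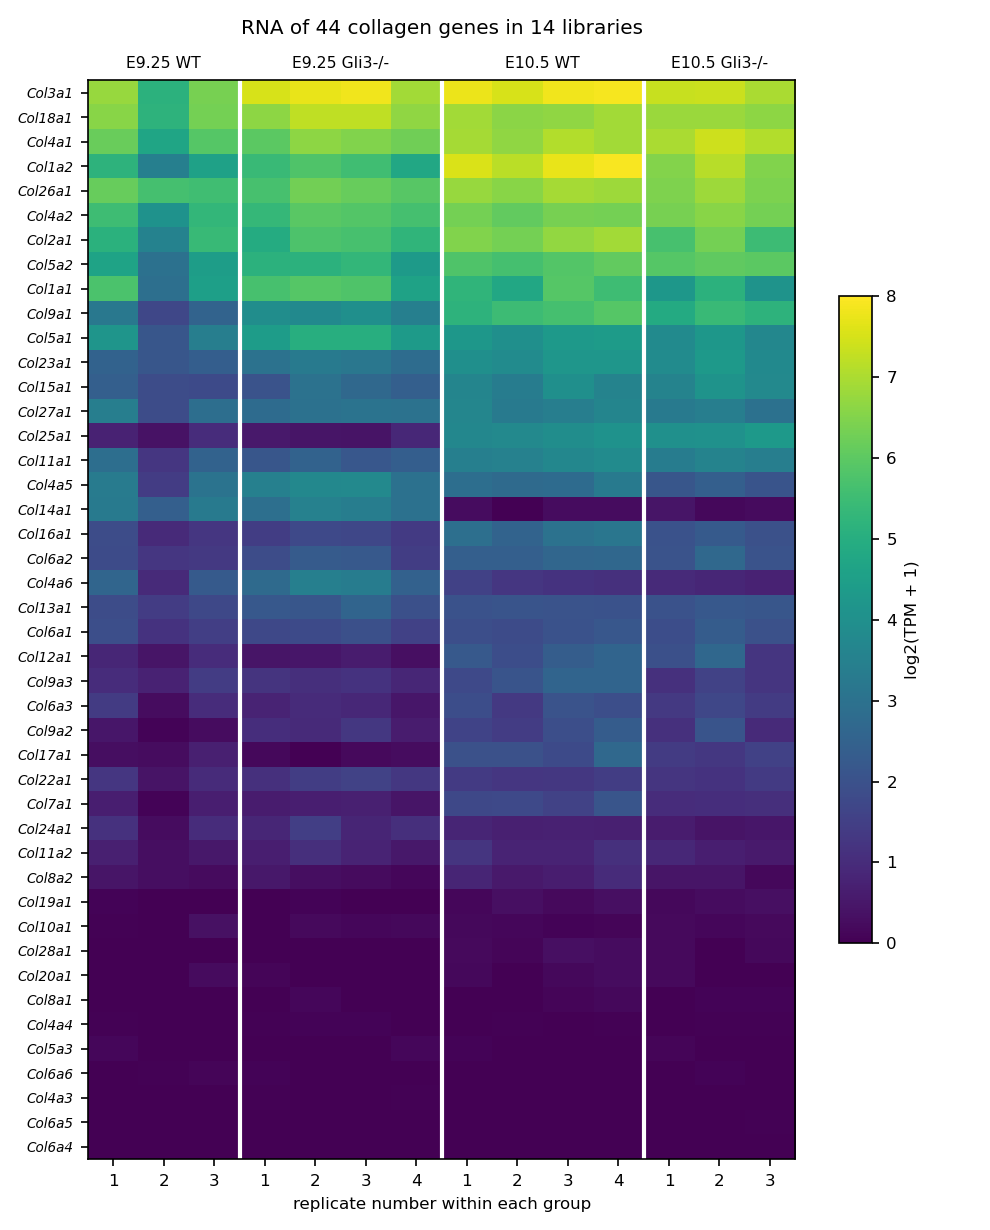
Level of each of the 44 collagen genes (one per line of the grid, ordered by mean TPM) in each of the 14 libraries (columns, replicate numbers below), as log2(TPM + 1) by colour. Col3a1 heads the grid, 12 collagens stay dark in all libraries, E9.25 WT replicate 2 is darker than its group, and Col25a1 and Col14a1 switch in opposite directions between stages.

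Summed collagen TPM was 624.4, 223.5 and 480 in E9.25 WT, and 681.6, 925.8, 902.9 and 594.6 in E9.25 Gli3-/-. It was 1166, 990.2, 1282 and 1343 in E10.5 WT, and 907.9, 1139 and 869 in E10.5 Gli3-/-. Every E10.5 WT library was above every E9.25 WT library, while the ranges of the 2 Gli3-/- groups overlapped. The 11 fibril-forming genes supplied the largest class sum in each group, with medians of 211.1, 412.7, 663 and 409 TPM in the same group order, and the 6 type IV genes came next at 108.2, 151.6, 206.7 and 215.4 TPM.

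The tables place Col4a1 (ENSMUSG00000031502.9) at chr8:11198423-11312826 on the minus strand and Col4a2 (ENSMUSG00000031503.13) at chr8:11312805-11449287 on the plus strand (mm10). They encode the main chains of the basement membrane network, are transcribed away from each other, and overlap by 22 bases at their starts. RefSeq promoter windows (GRCm38.p6, 250 bases before to 50 after the start, 5′ to 3′ on the gene's strand) are printed because the levels of this pair moved together. The Col4a1 window is chr8:11312777-11313076 on the minus strand and the Col4a2 window chr8:11312555-11312854 on the plus strand. Capitals mark the 78 bases that both windows hold, read from opposite strands.
Col4a1: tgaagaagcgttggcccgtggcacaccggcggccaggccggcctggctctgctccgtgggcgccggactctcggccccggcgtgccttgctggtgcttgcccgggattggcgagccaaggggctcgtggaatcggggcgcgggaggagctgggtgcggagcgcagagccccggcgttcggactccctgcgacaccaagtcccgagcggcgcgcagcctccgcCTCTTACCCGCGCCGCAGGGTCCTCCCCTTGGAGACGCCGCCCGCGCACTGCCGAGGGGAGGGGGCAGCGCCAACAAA
Col4a2: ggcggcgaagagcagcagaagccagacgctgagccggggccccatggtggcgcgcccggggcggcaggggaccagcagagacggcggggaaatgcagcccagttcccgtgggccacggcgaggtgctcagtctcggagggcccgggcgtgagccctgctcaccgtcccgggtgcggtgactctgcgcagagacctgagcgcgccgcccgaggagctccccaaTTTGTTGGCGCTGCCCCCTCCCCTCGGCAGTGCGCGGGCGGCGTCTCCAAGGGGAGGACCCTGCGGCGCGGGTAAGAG

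The ratio of Col4a1 to Col4a2 TPM stayed between 1.46 and 1.77 in all 14 libraries, including the library that stood apart, whose ratio lay within 1.52 to 1.59 with the rest of its group. Other partner chains did not keep 1 ratio. The chains of type I collagen, Col1a1 and Col1a2, which normally join 2 to 1, stood at a Col1a1 to Col1a2 ratio of 0.67 to 1.47 in E9.25 WT and 0.872 to 1.21 in E9.25 Gli3-/-. At E10.5 the ratio was 0.186 to 0.273 in WT and 0.185 to 0.242 in Gli3-/-, with no overlap between stages. Col5a1 to Col5a2, the main type V chains, went from 0.47 to 0.986 across the E9.25 libraries to 0.189 to 0.33 across the E10.5 libraries. Col4a5 and Col4a6 are a second head-to-head type IV pair, on chromosome X, with RefSeq starts separated by 1342 bases. Their ratio ran the other way, from 1.22 to 1.94 at E9.25 to 3.35 to 7.47 at E10.5. These ratios are descriptions and were not tested. Overlapping genes may share reads, because whether counting used strand is not given in the sources used here: 12 collagens overlap another gene at 1 TPM or more, 6 of them on the same strand, Col1a2 and Col4a5 among them.

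**Figure D2:**
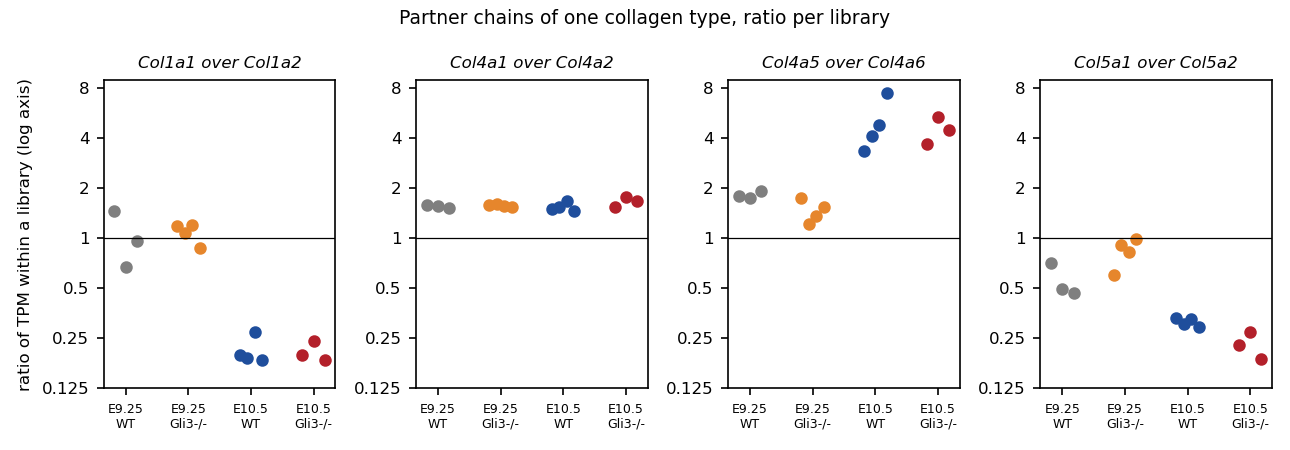
Ratio of TPM of partner chains within each library (vertical log axis) for 4 pairs, by group on the horizontal axis, 1 point per library. Col4a1 over Col4a2 stays at 1.46 to 1.77, Col1a1 over Col1a2 and Col5a1 over Col5a2 are lower at E10.5, and Col4a5 over Col4a6 is higher.

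RefSeq windows were held for 35 of the 44 genes, 38 windows in all. Shown here are the windows of Col1a2, which rose between stages in both genotypes while its partner chain did not, at chr6:4505368-4505667, and of Col3a1, the most abundant collagen, at chr1:45311288-45311587, both on the plus strand. They are printed with TATAAA and CCAAT, read on either strand, in capitals.
Col1a2: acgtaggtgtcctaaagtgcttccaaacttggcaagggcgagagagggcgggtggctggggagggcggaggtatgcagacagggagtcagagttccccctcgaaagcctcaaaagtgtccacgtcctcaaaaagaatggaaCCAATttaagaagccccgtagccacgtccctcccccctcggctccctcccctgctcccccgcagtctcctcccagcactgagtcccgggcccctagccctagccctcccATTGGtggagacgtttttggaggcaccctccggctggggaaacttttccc
Col3a1: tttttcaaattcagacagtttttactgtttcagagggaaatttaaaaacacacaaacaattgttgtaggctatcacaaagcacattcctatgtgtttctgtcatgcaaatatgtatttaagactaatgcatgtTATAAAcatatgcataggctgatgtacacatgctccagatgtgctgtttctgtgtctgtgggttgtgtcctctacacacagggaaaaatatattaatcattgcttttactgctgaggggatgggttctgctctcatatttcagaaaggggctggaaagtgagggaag
CCAAT (or ATTGG) was in 13 of the 38 collagen windows (34.2%) and in 37.4% of all 32851 windows of the same length. TATAAA (or TTTATA) was in 5 (13.2%), against 13.6% of all. GGGCGG (or CCGCCC), the core of a GC box, was in 23 (60.5%), against 35.7% of all. GACCACCCA (or TGGGTGGTC), the letters bound by GLI proteins, was in 0 of 38 collagen windows and in 0.253% of all. No motif lies within another, and a match is a run of letters, not a bound site.

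In WT buds, most collagens that could be tested rose from E9.25 to E10.5. Of 44 collagens, 30 were tested and 21 passed, 20 higher and 1 lower. Among all 15444 genes tested 48.7% passed, 38.1% higher and 10.6% lower. The median gene itself was 0.34 higher on the log2 scale, so changes were also read against it: the median collagen difference was 1.30, and 27 of 30 collagens lay above the median gene. After size factors centred the median gene at 0.02, 19 collagens were higher and 2 lower. The share of all genes called in that fit is not given, so this count is not read as particular to collagens. Of the 30 tested, 8 had a mean under 1 TPM in 1 group and were included through the other, and 7 of these passed, 6 higher and 1 lower. The 7 were Col6a3, Col7a1, Col9a2, Col12a1, Col14a1, Col17a1 and Col25a1.

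Among the fibril-forming genes, 8 of 11 were tested and 5 rose. Col1a2 (ENSMUSG00000029661.16, chr6:4504814-4541544), the second chain of type I collagen, was 35.4, 9.89 and 22.9 TPM in E9.25 WT and 185, 142, 214 and 240 TPM in E10.5 WT. The groups did not overlap, and the log2 difference was 3.19 (SE 0.36, adjusted p = 0.000415). Without E9.25 WT replicate 2 it was 2.71 (adjusted p = 5.68e-05). Col1a1 (ENSMUSG00000001506.10, chr11:94936224-94953042), its partner chain, behaved differently, at 51.9, 6.63 and 22.1 TPM in E9.25 WT and 36.8, 26.9, 58.5 and 44.8 TPM in E10.5 WT. The groups overlapped, and its difference of 0.97 (SE 0.56, adjusted p = 0.171) did not pass. It was 0.24 (adjusted p = 0.59) without replicate 2, and it passed without replicate 1, at 1.63 (adjusted p = 0.018).

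Col3a1 (ENSMUSG00000026043.18, chr1:45311538-45349706), the fiber collagen of soft tissue, was 107, 33.9 and 81.7 TPM in E9.25 WT and 217, 181, 227 and 236 TPM in E10.5 WT. It rose by 1.67 (SE 0.33, adjusted p = 0.00441), and by 1.19 without replicate 2 (adjusted p = 0.000344). Col5a2, a type V chain that sets fibril diameter, was 24.2, 7 and 20.8 TPM and then 54.1, 48.7, 57.1 and 67.3 TPM. Its 2 groups were well separated, with a rise of 1.81 (SE 0.35, adjusted p = 0.00418), or 1.29 without replicate 2. Col5a1, the partner type V chain, was 17.1, 3.45 and 9.77 TPM and then 17.9, 14.9, 18.7 and 19.8 TPM, a difference of 0.97 that did not pass (adjusted p = 0.0683) and was 0.42 without replicate 2 (adjusted p = 0.118).

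The cartilage collagens Col2a1, Col11a1, Col9a1, Col9a2 and Col9a3 rose, and Col11a2 missed the expression filter. Col9a2 was 0.405, 0.0655 and 0.211 TPM in E9.25 WT and 1.69 to 4.01 TPM in E10.5 WT, and it was included through E10.5. Col2a1, the main fiber collagen of cartilage, was 33.5, 10.8 and 41.4 TPM in E9.25 WT and 89.3, 78.9, 104 and 118 TPM in E10.5 WT, and it rose by 1.91 (SE 0.39, adjusted p = 0.00495), or by 1.35 without replicate 2. Col11a1, which copolymerizes with it, was 6.46, 1.41 and 4.67 TPM and then 10.1, 10.47, 12 and 13.4 TPM, a rise of 1.41 (adjusted p = 0.0108), or 0.93 without replicate 2 (adjusted p = 0.00288). Every E10.5 WT value of both genes was above every E9.25 WT value. Col9a1, a chain of type IX that coats type II fibrils, was 8.3, 2.29 and 4.87 TPM and then 35.3, 43.9, 48.9 and 58.7 TPM. It rose by 3.06 (SE 0.32, adjusted p = 0.000292), while its partner chains Col9a2 and Col9a3 rose by 1.54 and 1.18. Without replicate 2 these type IX rises were 2.67, 1.44 and 1.02 in the same order. Sox9, the transcription factor that drives Col2a1 in cartilage, was 5.63 to 11 TPM and then 47 to 66 TPM, and rose by 2.63 (adjusted p = 9.37e-05), or by 2.37 without that library.

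Col25a1, a transmembrane collagen best known in nerve and muscle, was 0.71, 0.319 and 1.01 TPM in E9.25 WT and 12.1, 12.7, 14.1 and 15.8 TPM in E10.5 WT. It went from near the detection floor to a moderate level, a rise of 3.14 (SE 0.19, adjusted p = 2.8e-05), or 2.98 without replicate 2. Markers of muscle progenitors moved with it, with a sum over 6 genes of 3.23 to 4.69 TPM and then 43.1 to 54.9 TPM, and their part in the result was not tested. The other transmembrane members Col17a1 and Col23a1 rose by 1.68 and 1.71. Col13a1, at 0.37, did not pass (adjusted p = 0.0801). Without replicate 2 these 3 values were 1.60, 1.61 and 0.25.

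Col14a1, a fibril-associated collagen of dense connective tissue, was the only collagen that fell. It was 8.68, 4.31 and 8.84 TPM in E9.25 WT and 0.214, 0, 0.2 and 0.199 TPM in E10.5 WT. It fell by 2.79 on the log2 scale (SE 0.24, adjusted p = 0.000108), and with any 1 of replicates 1, 2 and 3 of E9.25 WT left out it missed the expression filter. Tnc, an adhesion-modulating glycoprotein of the matrix, fell by 3.17 (adjusted p = 0.000209) and was not tested without replicate 2. Its level was 4.59 to 13.9 TPM in E9.25 WT and 0.109 to 0.176 TPM in E10.5 WT, so it met the filter through E9.25. In the other fibril-associated genes, Col12a1 rose by 1.49 and Col16a1 by 1.54, and without that library by 1.33 and 1.34.

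In the basement membrane, Col4a1 was 71.6, 24.9 and 58.5 TPM in E9.25 WT and 119, 101, 135 and 116 TPM in E10.5 WT, and rose by 1.30 (SE 0.31, adjusted p = 0.00963). It rose by 0.85 without replicate 2 (adjusted p = 0.00121). Col4a2 was 44.9, 15.9 and 38.6 TPM and then 79.7, 65.9, 80.6 and 79.7 TPM, and rose by 1.30 as well (adjusted p = 0.00885), or by 0.86 without replicate 2. The second pair did not pass: Col4a5 differed by 0.33 (adjusted p = 0.519) and Col4a6 by -0.67 (adjusted p = 0.139). Without replicate 2, Col4a6 fell, by 1.16 (adjusted p = 0.00197), and the Col4a5 difference turned negative, at -0.26 (adjusted p = 0.267). Col15a1, a collagen of vessel and muscle basement membranes, rose by 1.62 (1.54 without replicate 2), and Col18a1, the source of endostatin, was 34.9 to 93.7 TPM and then 96.9 to 118 TPM, a difference of 0.74 that did not pass (adjusted p = 0.0601), nor did the 0.31 found without replicate 2 (adjusted p = 0.0547).

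Without replicate 2, 29 collagens were tested and 20 passed, 19 higher and 1 lower, against 43.2% of all genes. Of these, 19 were among the 21. The median collagen difference was then 0.95 and that of all genes 0.25, with 27 of 29 collagens positive and 24 above the median gene. Col6a3, a chain of the beaded type VI filaments, no longer passed (adjusted p = 0.0639), and Col14a1 was not tested.

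**Figure D3:**
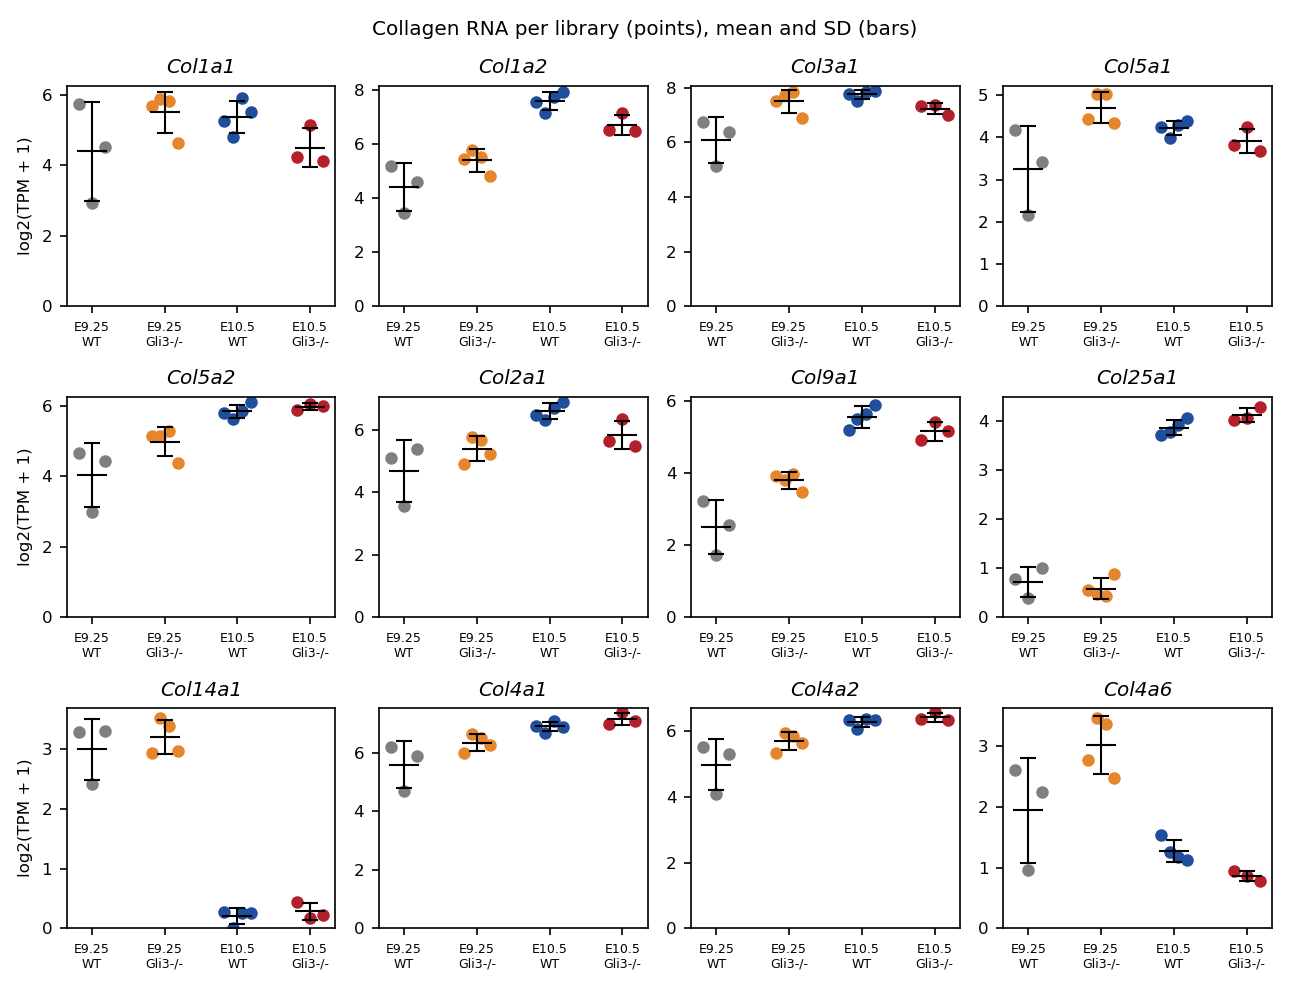
Level of 12 collagens as log2(TPM + 1) in each library (points), with group mean and SD (black bars), for E9.25 WT (3 libraries), E9.25 Gli3-/- (4), E10.5 WT (4) and E10.5 Gli3-/- (3). Col1a2, Col9a1 and Col25a1 are higher and Col14a1 lower at E10.5 in both genotypes, while Col1a1 overlaps between WT stages.

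In Gli3-/- buds the same stage comparison gave rises and falls. Of the 30 collagens tested, 19 passed, 14 higher and 5 lower at E10.5, against 25% of all 15434 genes tested, 15.8% higher and 9.17% lower. The median collagen difference was 0.43 and that of all genes 0.06. Of the 30, 21 lay above the median gene. Leaving out any 1 of the 3 E10.5 Gli3-/- libraries left 25 collagens tested and 11 to 13 called, against 14.2 to 15.3% of all genes. Of the 30, 8 had a mean under 1 TPM in 1 group and were included through the other, and 6 of these passed (Col12a1, Col14a1, Col17a1, Col25a1, Col4a6 and Col6a3). Marker sums of other cells moved between the same groups, with flank mesoderm at 82.3 to 216 TPM at E9.25 and 31.5 to 57.6 TPM at E10.5. Within the flank list Tbx18 rose, from 2.94 to 6.5 TPM to 24.1 to 38.2 TPM, and Osr1 overlapped between stages. Foxf1, Gata4, Hand1, Gata6, Wt1 and Foxf2 were under 1 TPM in every E10.5 Gli3-/- library. Endothelium went from 148 to 222 to 114 to 141 TPM, and muscle progenitors from 1.32 to 2.24 to 29 to 52 TPM. The part of these cells in the result was not tested.

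Col25a1 rose most, from 0.463, 0.382, 0.352 and 0.857 TPM in E9.25 Gli3-/- to 15.2, 15.7 and 18.6 TPM in E10.5 Gli3-/-, by 3.54 (SE 0.17, adjusted p = 5.03e-07). Col12a1, a stress-bearing fibril-associated collagen, was 0.364, 0.402, 0.521 and 0.252 TPM and then 2.85, 5.37 and 1.36 TPM, and rose by 1.49 (SE 0.28, adjusted p = 0.00374). The E10.5 values differ several fold among themselves but none overlaps E9.25. Col9a1 was 14.2, 13, 14.8 and 10 TPM and then 28.9, 42 and 34.7 TPM, a rise of 1.37 (adjusted p = 0.000265). Col1a2 was 42, 54.1, 45.3 and 27.1 TPM and then 90.2, 140 and 88.7 TPM, a rise of 1.33 (SE 0.23, adjusted p = 0.00219). Col15a1 was 3.14, 7, 5.46 and 4.37 TPM and then 10.9, 16.2 and 12.6 TPM, a rise of 1.27 (adjusted p = 0.00249).

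Col4a1 and Col4a2 were both higher again at E10.5. Col4a1 was 62.6, 97.7, 88.9 and 75.3 TPM in E9.25 Gli3-/- and 125, 166 and 133 TPM in E10.5 Gli3-/-, a rise of 0.80 (adjusted p = 0.00508). Col4a2 was 39.5, 60.8, 56.4 and 49.1 TPM and then 80.4, 94.1 and 78.7 TPM, a rise of 0.72 (adjusted p = 0.0063). Neither gene had overlapping groups.

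The 5 that fell came from the fibril-forming, type IV and fibril-associated classes. Col14a1 fell by 2.91 (adjusted p = 3.67e-06), from 6.65, 10.4, 9.39 and 6.84 TPM to 0.364, 0.133 and 0.168 TPM. Col4a6 went from 5.83, 10.1, 9.26 and 4.54 TPM to 0.919, 0.823 and 0.71 TPM, and fell by 2.16 (SE 0.24, adjusted p = 0.000141). Its neighbour Col4a5, a chain of specialized basement membranes, went from 10.1, 12.3, 12.7 and 6.99 TPM to 3.42, 4.41 and 3.21 TPM, and fell by 1.28 (adjusted p = 0.00133). For all 3 genes the lowest E9.25 value exceeded the highest E10.5 value.

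Col1a1 was 49.9, 58.2, 54.9 and 23.6 TPM in E9.25 Gli3-/- and 17.8, 34 and 16.4 TPM in E10.5 Gli3-/-, with E9.25 replicate 4 inside the E10.5 range. It fell by 1.00 (SE 0.32, adjusted p = 0.0458), a call that was lost without any 1 of E9.25 Gli3-/- replicates 1 to 3 or E10.5 Gli3-/- replicates 1 and 3 (adjusted p = 0.0792 to 0.15). Col5a1 was 20.5, 31.5, 31.4 and 19.3 TPM and then 13.2, 17.9 and 11.9 TPM, and fell by 0.78 (adjusted p = 0.0203). That call was lost without E9.25 Gli3-/- replicate 3 (adjusted p = 0.0509) and without E10.5 Gli3-/- replicates 1 (0.0739) or 3 (0.0838). Their partner chains went the other way: Col1a2 rose, and Col5a2, at 34.1, 34.6, 38.1 and 19.6 TPM and then 57.8, 65.6 and 62.9 TPM, rose by 0.99 (adjusted p = 0.00503). Col3a1, at 181, 214, 226 and 118 TPM and then 161, 164 and 126 TPM, did not pass (-0.26, adjusted p = 0.389). Col2a1, at 29.1, 53.9, 49.9 and 36.8 TPM and then 49.7, 79.9 and 43.8 TPM, did not pass either (0.43, adjusted p = 0.229). Col11a1, at 3.45, 4.73, 3.5 and 4.29 TPM and then 9.17, 10.9 and 9.8 TPM, rose by 1.14 (adjusted p = 0.000439).

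**Figure D4:**
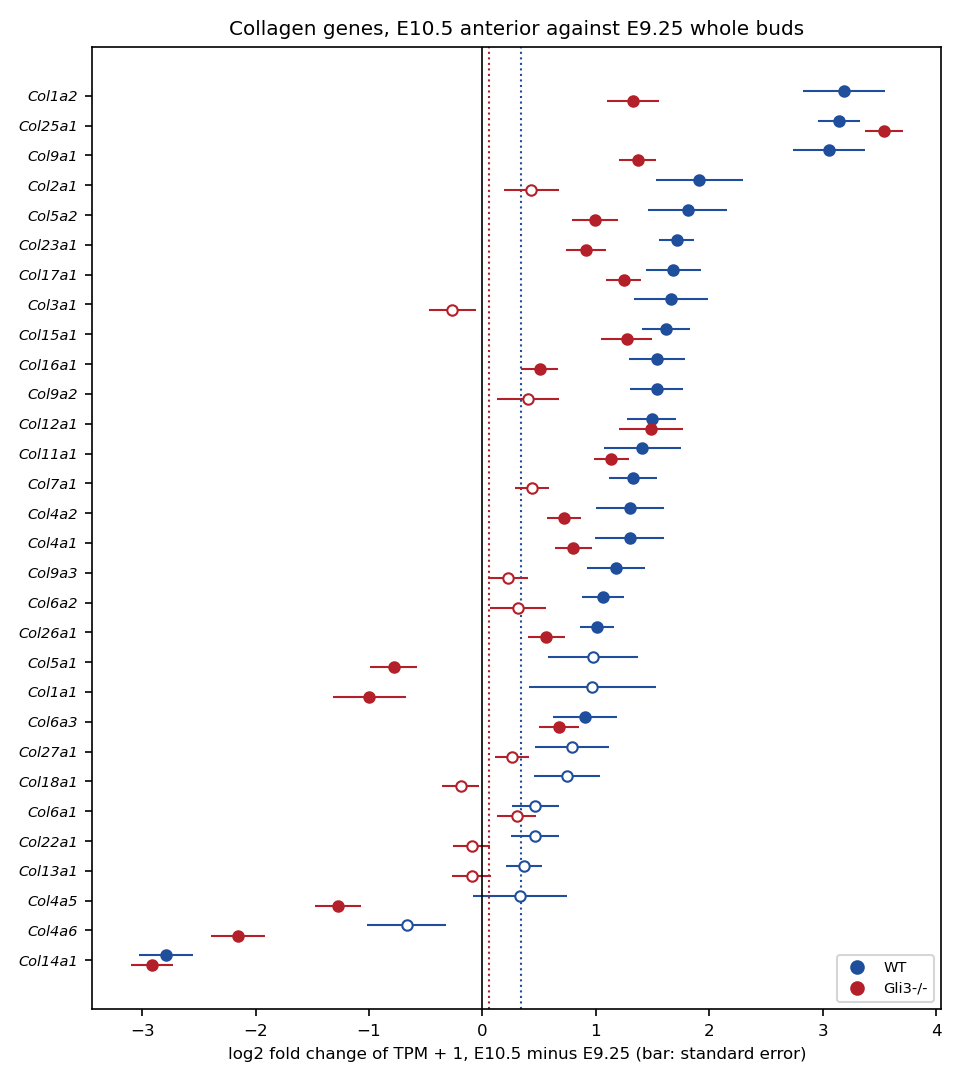
Difference between E10.5 anterior buds and E9.25 whole buds in log2(TPM + 1) (horizontal axis) for each collagen tested, in WT (blue) and in Gli3-/- (red), with standard errors as bars. Filled points have an adjusted p under 0.05, open points do not, dotted lines mark the median of all genes (0.338 and 0.0608), and 20 WT points are filled to the right against 14 in Gli3-/-.

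Between genotypes at E9.25, before Hedgehog signalling, no collagen passed. Of 44 collagens, 25 were tested and 0 were called by limma, with 0.136% of all 14760 genes called, 0.108% higher and 0.0271% lower. At an unadjusted p under 0.05 there were 11 collagens, and 3247 genes in all. All 25 differences were positive, with a median of 0.71 against 0.23 for all genes, and 21 lay above the median gene. Without E9.25 WT replicate 2, 20 of 25 were positive and 5 negative, the median was 0.30 against 0.14 for all genes, and 18 lay above the median gene. In 6 collagens every Gli3-/- library was above every WT library, against 9.97% of all genes tested, and in 0 the reverse held, against 3.36%.

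The low library weighs on these values. Col5a1 differed by 1.45 (adjusted p = 0.206) between the levels given above, and by 0.90 (adjusted p = 0.338) without E9.25 WT replicate 2. Col3a1 differed by 1.41 (adjusted p = 0.168), and by 0.93 (adjusted p = 0.291) without it. Col1a1 differed by 1.10 and then by 0.37, Col1a2 by 0.98 and then by 0.51, and Col2a1 by 0.71 and then by 0.14. Col11a1 differed by 0.09, and by -0.39 without the library. Without replicate 2 limma called 0 collagens (0.123% of all genes), with 5 collagens and 1621 genes at an unadjusted p under 0.05. Without replicate 1 instead it called 3, Col3a1, Col5a1 and Col9a1, against 1.35% of all genes. Flank mesoderm markers summed to 25.5 to 61.2 TPM in E9.25 WT and 82.3 to 216 TPM in E9.25 Gli3-/-, over 8 genes of which 7 had a mean of 1 TPM or more in both groups. Endothelial markers summed to 76.1 to 132 and 148 to 222 TPM over 10 genes. Their part in the differences was not tested.

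Between genotypes in E10.5 anterior buds, the collagens that passed were all lower in Gli3-/-. Of 29 tested, 6 passed, 0 higher and 6 lower, against 4.77% of all 15654 genes tested, 1.84% higher and 2.93% lower. The median collagen difference was -0.31, that of all genes -0.02, and 21 of 29 lay below the median gene. In 8 collagens every Gli3-/- library was below every WT library, against 11.5% of all genes, and in 0 the reverse held, against 7.87%.

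The largest difference was in Col9a3, a type IX chain of cartilage fibrils, at 2.38, 3.23, 4.98 and 4.92 TPM in E10.5 WT and 1.15, 2.01 and 1.33 TPM in E10.5 Gli3-/-. It fell by 0.94 (SE 0.22, adjusted p = 0.0478). Col1a2, with 142 to 240 TPM in WT and 88.7 to 140 TPM in Gli3-/-, fell by 0.88 (SE 0.20, adjusted p = 0.0404). Both genes had separate groups, Col1a2 by a narrow gap.

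Col16a1, a fibril-associated collagen that binds integrins, was 6.5, 4.79, 7.01 and 7.76 TPM in WT and 3.01, 3.79 and 2.93 TPM in Gli3-/-, and fell by 0.81 (SE 0.16, adjusted p = 0.0208). Col7a1, which forms the anchoring fibrils under the epidermis, was 2.3, 2.42, 2.01 and 3.33 TPM and then 1, 1.07 and 1.09 TPM, and fell by 0.76 (SE 0.15, adjusted p = 0.0234). The Gli3-/- values of Col7a1 lay within 0.1 TPM of each other. Col4a5, at 6.35, 5.81, 6 and 8.75 TPM in WT and 3.21 to 4.41 TPM in Gli3-/-, fell by 0.72 (adjusted p = 0.0346). Col3a1, at 181 to 236 TPM in WT and 126 to 164 TPM in Gli3-/-, fell by 0.52 (SE 0.12, adjusted p = 0.0381). Col1a1 (-0.87, adjusted p = 0.134) and Col2a1 (-0.78, adjusted p = 0.0627) did not pass.

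The main basement membrane and vessel collagens did not pass, with Col4a1 differing by 0.25 (adjusted p = 0.279), Col4a2 by 0.14 (adjusted p = 0.464) and Col18a1 by -0.02 (adjusted p = 0.936). Col25a1 (0.26), Col5a2 (0.13), Col5a1 (-0.31) and Col11a1 (-0.19) did not pass. Sox9, at 47 to 66 TPM in WT and 53.4 to 89.3 TPM in Gli3-/-, was not called.

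These 6 calls were near the threshold and each was lost when some libraries were left out. Without E10.5 WT replicates 1, 2, 3 and 4 in turn the count of collagens was 1, 5, 1 and 1, and without E10.5 Gli3-/- replicates 1, 2 and 3 it was 0, 5 and 0. The share of all genes called was 2.92, 4.39, 3.56 and 2.93% in the first 4 fits and 3.17, 2.93 and 1.94% in the others. Of the 5 collagens without Gli3-/- replicate 2, 3 were among the 6, and Col1a1 and Col2a1 were not. Limb mesenchyme markers, 10 genes, summed to 1120 to 1390 TPM in WT and 850 to 905 TPM in Gli3-/-. Prrx1, Prrx2, Msx1, Msx2, Lhx2, Lhx9 and Twist1 were lower in every Gli3-/- library than in every WT library, and Tbx5 overlapped. Fgf10 (10.2 to 13.1 and 25.5 to 27.3 TPM) and Meox2 (22.6 to 38.5 and 50 to 63.3 TPM) went the other way. Surface ectoderm markers, 10 genes, summed to 256 to 340 TPM in WT and 365 to 410 TPM in Gli3-/-. In the ectoderm list only Fgf8 separated the groups, at 50.4 to 69 TPM in WT and 131 to 171 TPM in Gli3-/-. Sclerotome and girdle markers, 4 genes, summed to 15.9 to 41.4 and 5.97 to 10.1 TPM. In that list only Pax1 separated the groups, at 8.27 to 34.6 TPM in WT and 0 to 0.172 TPM in Gli3-/-, while Meox1 was 5.94 to 7.93 and 5.95 to 9.91 TPM and Pax9 and Nkx3-2 stayed at or below 0.477 TPM. The part of these markers in the result was not tested.

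**Figure D5:**
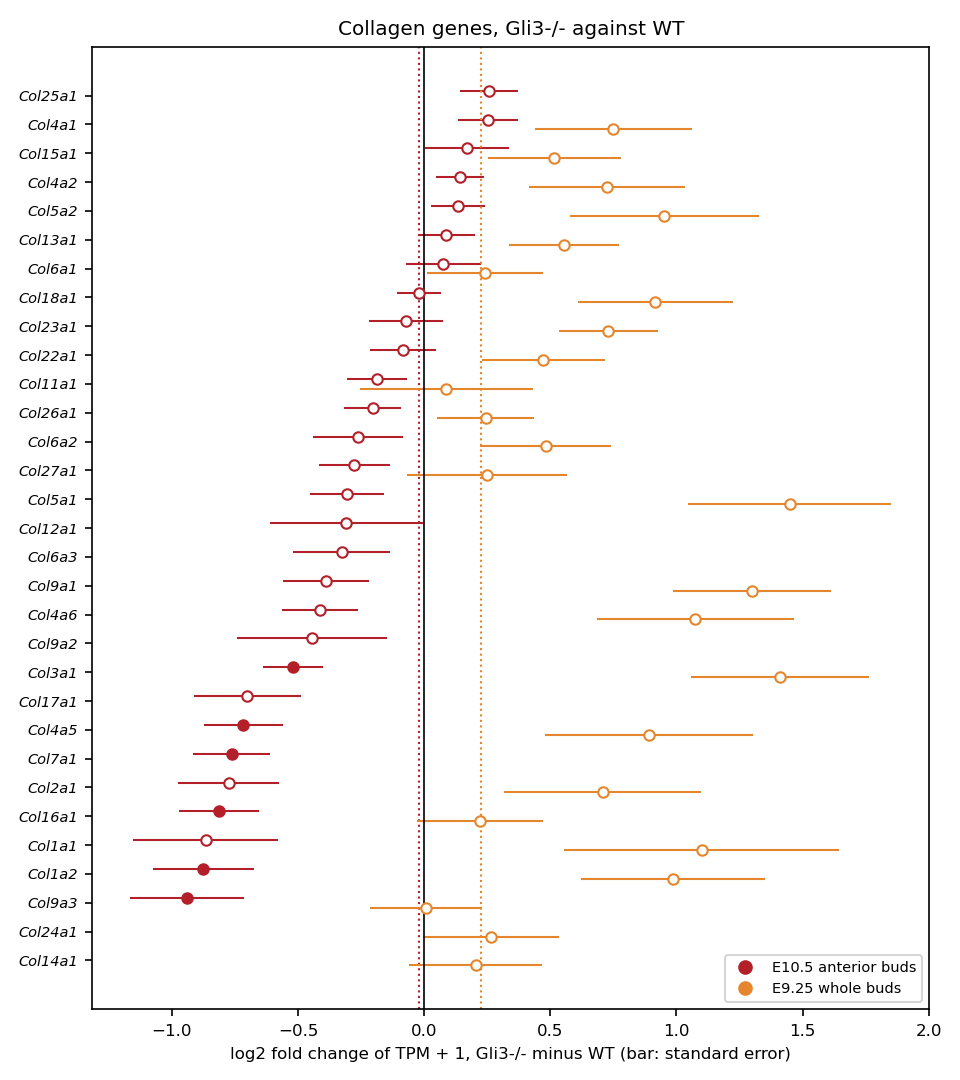
Difference between Gli3-/- and WT in log2(TPM + 1) (horizontal axis) for each collagen tested, in E10.5 anterior buds (red) and E9.25 whole buds (orange), with standard errors as bars. Filled points have an adjusted p under 0.05 and dotted lines mark the median of all genes (-0.0217 and 0.225); 6 red points to the left are filled and all orange points are open and right of 0.

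Whether the genotype difference itself changed with stage was tested in a model of all 14 libraries. Of 32 collagens tested, 2 passed, both with a more negative difference at E10.5, against 2.13% of all 16368 genes, 0.477% positive and 1.65% negative. For Col3a1 the difference went from 1.41 at E9.25 to -0.52 at E10.5, an interaction of -1.93 (SE 0.43, adjusted p = 0.0294). For Col9a1 it went from 1.30 to -0.39, an interaction of -1.69 (SE 0.39, adjusted p = 0.037). The median over collagens was -0.67 and over all genes -0.24, with 31 of 32 collagens negative and 27 below the median gene. Of the 32, 11 had a mean under 1 TPM in some group, neither of the called genes among them.

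Without E9.25 WT replicate 2, Col3a1 stayed past the threshold at -1.45 (adjusted p = 0.0259) and Col9a1 did not, at -1.30 (adjusted p = 0.0504), against 1.33% of all genes. The median over collagens was then -0.41 and over all genes -0.16, with 26 of 32 negative, 6 positive and 23 below the median gene. Both calls were also lost without E9.25 Gli3-/- replicates 2 or 3, without E10.5 WT replicates 3 or 4 and without any E10.5 Gli3-/- replicate. Col3a1 alone was lost without E10.5 WT replicate 1 (adjusted p = 0.0609), and Col9a1 alone without E9.25 WT replicate 3 (0.0737), E9.25 Gli3-/- replicate 1 (0.0545) or E10.5 WT replicate 2 (0.0524). Without E9.25 WT replicate 1 there were 11 collagens, both of these included, against 8.79% of all genes. Col1a2 (-1.86, adjusted p = 0.0577), Col1a1 (-1.97, adjusted p = 0.161) and Col5a1 (-1.76, adjusted p = 0.0802) did not pass. Their values without E9.25 WT replicate 2 were -1.38, -1.24 and -1.21, and none passed (adjusted p = 0.0905, 0.309 and 0.0948). The 4 comparisons share libraries, so their values are given side by side and were not correlated.

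Genes that make, fix, bind or cut collagen were followed in 7 gene lists. Over the lists, 69 genes were tested between WT stages, and 46.4% rose and 7.25% fell, against 38.1% and 10.6% of all genes. In Gli3-/-, 68 were tested, and 27.9% rose and 20.6% fell, against 15.8% and 9.17%. The same lists without E9.25 WT replicate 2 had 67 tested between WT stages, of which 29 rose and 6 fell (43.3% and 8.96%). In that fit 43.2% of all genes were called in either direction. Among 29 maturation and secretion genes, 23 were tested between WT stages, and 9 rose (39.1%, near the 38.1% of all genes) and 1 fell. Without replicate 2, 7 rose and 1 fell. Bmp1, the procollagen C-proteinase, rose by 1.83 (adjusted p = 0.000217), and P3h3, a prolyl 3-hydroxylase, by 1.54 (adjusted p = 0.00014). Serpinh1, the collagen chaperone of the endoplasmic reticulum, was already at 605 to 643 TPM in E9.25 WT and fell by 0.25 to 488 to 554 TPM (adjusted p = 0.0294). For Gli3-/-, 25 of this list were tested, 5 rose and 4 fell (20% and 16%, against 15.8% and 9.17% of all genes). Bmp1 was up by 1.58 and Adamts2, the N-proteinase, down (-2.14, adjusted p = 0.000175). Adamts2 was 3.04 to 7.37 TPM in E9.25 Gli3-/- and 0.347 to 0.633 TPM in E10.5 Gli3-/-. P4ha2, a prolyl 4-hydroxylase subunit, fell by 0.90 (adjusted p = 0.00197).

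Of 5 cross-linking enzymes, 4 were tested and 3 rose between WT stages (75%, against 38.1% of all genes). Loxl3 rose by 1.67 (adjusted p = 0.000296), Loxl1 by 1.04 and Lox by 0.56 (adjusted p = 0.0376). Loxl1 was 0.514 to 1.03 TPM in E9.25 WT. With E9.25 WT replicate 2 left out, Lox did not pass (0.51, adjusted p = 0.0878), and Loxl2 fell by 0.79 (adjusted p = 0.0278). In Gli3-/- 1 of 4 rose and 2 fell (25% and 50%, against 15.8% and 9.17% of all genes). Loxl3 was up by 0.97, Loxl2 down (-1.47, adjusted p = 0.000168) and Lox down (-0.64, adjusted p = 0.0103). Lox, a lysyl oxidase that hardens collagen fibers, was low throughout, at 0.994, 0.453 and 0.347 TPM in E9.25 WT, 1.19 to 1.42 TPM in E9.25 Gli3-/-, 1.17 to 1.78 TPM in E10.5 WT and 0.329 to 0.543 TPM in E10.5 Gli3-/-. It fell between genotypes at E10.5 (-0.67, adjusted p = 0.04), and its interaction was -1.21 (adjusted p = 0.0131).

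Of 10 collagen receptors, 6 were tested between WT stages and 4 rose (66.7%, against 38.1% of all genes). Ddr2, a receptor kinase for fibrillar collagen, led at 1.44 (adjusted p = 0.00427). Without E9.25 WT replicate 2 again 4 receptors rose. In Gli3-/- buds 1 of 6 rose (16.7%, near the 15.8% of all genes), Itga1, by 1.12 (adjusted p = 0.00065). Itga1 was 0.398 to 0.87 TPM in E9.25 Gli3-/- and 2.36 to 2.54 TPM in E10.5 Gli3-/-. Of 12 collagen-cleaving proteases and inhibitors, 7 were tested between WT stages. There 4 rose and 2 fell (57.1% and 28.6%, against 38.1% and 10.6% of all genes). The inhibitor Timp2 rose by 1.60 and Mmp2 by 1.04, while Mmp9 (-1.10) and Timp1 (-0.75) fell. Mmp9 was 1.14 to 1.49 TPM in E9.25 WT and 0 to 0.169 TPM in E10.5 WT. Without replicate 2, 6 were tested, 5 rose and 1 fell, and Mmp9 missed the expression filter. Of 6 tested in Gli3-/-, 4 rose and 1 fell (66.7% and 16.7%, against 15.8% and 9.17% of all genes).

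Of 15 basement membrane partners, 13 were tested and 5 rose between WT stages (38.5%, near the 38.1% of all genes). The laminin chains Lama2 and Lama4 rose by 2.17 and 1.48. Lama2 was 0 to 0.201 TPM in E9.25 WT and 0.129 to 0.385 TPM in E9.25 Gli3-/-, and met the filter through E10.5. Leaving out E9.25 WT replicate 2, 5 rose and 1 fell, Lama1 (-0.70, adjusted p = 0.00921), which had differed by -0.07. In Gli3-/- buds 3 of 12 rose and 3 fell (25% each, against 15.8% and 9.17% of all genes). Lama2 was up by 1.94 and Lama1 down (-1.07, adjusted p = 0.00083). At E10.5 the linker Nid1 was higher in Gli3-/- by 0.87 (adjusted p = 0.000425) and the laminin chain Lamb2 lower (-0.95, adjusted p = 0.00456). Of 16 proteoglycans and glycoproteins of fibrils, 8 were tested between WT stages and 2 rose and 1 fell, a share of risers of 25%, below that of all genes. Without replicate 2, 7 were tested and 1 rose and 1 fell, Lum (-2.19, adjusted p = 0.00123). Among 8 in Gli3-/- 1 rose and 2 fell (12.5% and 25%, against 15.8% and 9.17% of all genes). Tnc fell by far the most (-3.84, adjusted p = 5.63e-07), to 0.165 to 0.262 TPM in E10.5 Gli3-/-. Between genotypes at E10.5, Lum, a keratan sulfate proteoglycan, was higher in Gli3-/- by 0.99 (adjusted p = 0.00998).

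Of 10 transcription factors known to act on collagen genes, 8 were tested between WT stages. Among them 5 rose and 1 fell (62.5% and 12.5%, against 38.1% and 10.6% of all genes). Scx, a regulator of tendon collagen genes, was up by 3.69 (adjusted p = 2e-05). The counts were again 5 and 1 without E9.25 WT replicate 2. Of 7 tested in Gli3-/-, 4 rose and 2 fell (57.1% and 28.6%, against 15.8% and 9.17% of all genes), Scx up by 4.01 and Sox9 by 2.19. At E10.5, Runx2 (-1.60, adjusted p = 0.0126) and Sox6 (-0.86, adjusted p = 0.0299) were lower in Gli3-/-. Runx2 was 1.53 to 5.7 TPM in E10.5 WT and 0.338 to 0.523 TPM in E10.5 Gli3-/-. It was under 1 TPM in every library outside E10.5 WT and met the expression filter through that group. Between genotypes at E9.25, 65 genes of these 7 lists were tested and limma called 0. At an unadjusted p under 0.05 there were 26, against 3247 of all 14760 genes tested. Without replicate 2 limma again called 0, and 1621 genes in all had an unadjusted p under 0.05. The list count at that level is not given for this fit. In the interaction, P3h2 (-1.11), Lox, Lamb2 (-1.89), Runx2 (-1.49) and Sox6 (-1.71) passed, all negative, 6.94% of the 72 list genes tested against 2.13% of all genes. Without E9.25 WT replicate 2, P3h2 (-0.99, adjusted p = 0.0725) and Runx2 (-1.41, adjusted p = 0.0914) did not pass, and Nid1 passed with a positive value (0.93, adjusted p = 0.0273).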

How the data were processed

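RNA-seq libraries were made by the authors from pooled forelimb buds with a NEBNext Ultra II RNA kit and sequenced as single reads of 100 bases. The authors aligned reads with HISAT2 and used DESeq2 for their own comparisons, which are not used here. The submitters' processing notes name the mm10 build. The deposited tables hold, per gene, read coverage (a signal), FPKM and TPM. The program that wrote them, its annotation and its use of strand are not given in the sources used here. They hold no counts, so no count test was run. Depth was estimated from the ratio of coverage to FPKM.

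Gene tables were joined by gene ID. limma 3.58.1 in R 4.3.3 (lmFit, then eBayes with a trend) was fitted to log2(TPM + 1) of the deposited TPM, using the libraries of the 2 groups compared, or all 14 for the interaction. A gene was tested where TPM reached 1 in at least 3 compared libraries. The script was tested on simulated data. Members and lists were chosen with earlier results of these data known. Values in every library are given for Col1a1, Col1a2, Col2a1, Col3a1, Col5a1, Col5a2, Col11a1, Col4a1 and Col4a2, and for up to 5 collagens per direction with the largest change among those passing in a comparison. From other lists at most 3 genes per direction were named. Each test of collagens was refitted with a pseudocount of 0.1, without the filter, with a 5 TPM filter, with size factors and with quantile normalization. It was also refitted with no trend, in a single model (except the interaction, which already used all 14 libraries), with a replicate block, and without each library in turn. The gene lists were refitted only without E9.25 WT replicate 2, so their calls were not checked under the other settings. Removal of a trend with gene span, and the gene lists without E9.25 WT replicate 2, were added after seeing the data. Replicate numbers did not pair the samples: no comparison had a correlation of deviations over 0.1 in every same-numbered pair. Chromatin libraries of the series were not analysed here.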

Additional observations from a re-analysis of the deposited data

Results flagged for a closer look

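The effect of genotype differed between stages for 2 collagens, by the interaction test of limma over all 14 libraries. For Col3a1 the interaction was -1.93 (SE 0.43, adjusted p = 0.0294) and for Col9a1 it was -1.69 (SE 0.39, adjusted p = 0.037). With 1 library left out, Col3a1 passed in 6 and Col9a1 in 3 of 14 fits. Stage and tissue part cannot be told apart here either.

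Single libraries stood far from the other 3 of their group, by Dixon's test on log2(TPM + 1), in 4 of 64 groups of 4 examined. Chance gives about 1 in 20. Col14a1 was 0 in E10.5 WT replicate 2, against 0.262 to 0.279 in the others. Col24a1 was 0.83 in E10.5 WT replicate 1, against 0.711 to 0.724. Col4a2 was 6.06 in E10.5 WT replicate 2, against 6.33 to 6.35. Col5a2 was 4.36 in E9.25 Gli3-/- replicate 4, against 5.14 to 5.29.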

How the results depend on the processing

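Counts of collagens called moved as follows. For settings other than leaving out 1 library, the share of all genes called is not given beside them. Those counts are therefore not read as particular to collagens. Between WT stages a filter of 5 TPM left 13 (18 tested), and leaving out 1 library gave 19 to 27. Between Gli3-/- stages leaving out 1 library gave 11 to 19. Between genotypes at E9.25, where the count was 0, a single model of all 14 libraries called 6, the replicate block 1, and leaving out 1 library gave 0 to 3. Between genotypes at E10.5, where it was 6, no filter gave 0, no trend 3, the single model 2, the replicate block 0, and leaving out 1 library 0 to 5. For the interaction, where it was 2, a pseudocount of 0.1 gave 1, no filter 0, the replicate block 0, and leaving out 1 library 0 to 11. With 1 library left out, the share of all genes called was 34.1 to 54.5% between WT stages and 14.2 to 28.3% between Gli3-/- stages. Between genotypes it was 0.0137 to 1.35% at E9.25 and 1.94 to 4.39% at E10.5, and for the interaction 0.923 to 8.79%. The cause was not tested. Samples share only a number, so a call lost under the block is not read as a weaker effect. Col11a1 changed sign: its E9.25 genotype difference was -0.0935 with size factors, -0.177 with quantile normalization, -0.0691 with the gene-span trend removed and -0.391 without E9.25 WT replicate 2 (-0.391 to 0.425 over the libraries left out), and its interaction was 0.0374 with quantile normalization and 0.205 without that library (-0.612 to 0.205). Of the values of single collagens, 1109 kept direction and side of the threshold, 116 lost and 15 gained significance, and 6 changed sign. At 20.72 to 29.3 reads per kb for 1 TPM, collagens below 1 TPM rest on few reads. With 3 or 4 libraries per group, differences near 0.5 on the log2 scale may be missed, and larger ones where libraries spread widely. Between genotypes at E9.25, differences of 1.45 (Col5a1), 1.41 (Col3a1) and 1.10 (Col1a1, SE 0.55) did not pass. The lack of calls there does not show equal levels.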
